A study of Mus musculus with 6 samples.

Results

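The 10 genes described here are the 3 GADD45 genes (Gadd45a, Gadd45b and Gadd45g) and 7 genes of dual-specificity phosphatases that act on MAP kinases (Dusp1, Dusp4, Dusp5, Dusp6, Dusp8, Dusp10 and Dusp16). They were picked by symbol among 54232 genes, with their values in the strain comparison already known, so that their differences between strains are given as a description. All 10 had enough reads to enter the fit over 13875 genes. The RNA came from cardiomyocytes of adult male mice, freed from the heart by collagenase perfusion, settled by gravity and held for 4 h on laminin. The labels name the ventricles as the source and call the material both total and cytoplasmic RNA. The gene-trap mice carried the allele UtyGt(XS0378)Wtsi, in which intron 4 of the Y-linked gene Uty holds an extra splice acceptor and a stop codon, in every cell of the body. The wild-type mice were the isogenic strain C57BL/6.Y<129P2>. Both Y chromosomes descend from 129P2/OlaHsd on a C57BL/6J background. Each strain had 3 libraries from separate isolations, lettered e, f, g for wild type and d, e, f for the trap, and values per library follow that order. Neither age nor the number of hearts per isolation is stated.

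The GADD45 proteins are small, acidic proteins without enzyme activity that cells make in response to stress. They bind and activate the kinase MAP3K4, which feeds into p38 and JNK, and also bind cell-cycle and DNA-repair proteins such as PCNA. The dual-specificity phosphatases work the other way: they remove phosphate from both the threonine and the tyrosine of the activation loop of MAP kinases and so switch ERK, JNK or p38 off. Several of them are transcribed within minutes of MAP kinase activation and form a negative feedback, which in the heart restrains ERK, JNK and p38 signalling.

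Libraries held 28283654 to 48377453 reads in genes. Gene-trap f had the fewest reads, yet 28619 genes with at least 1 read, beside 21615 to 22917 in the other libraries. The source of this difference was not tested. Genes of the mitochondrial genome took 46.9% to 54.7% of them in wild type and 39.8% to 44.8% with the trap. Uty had 877 to 1093 normalized counts (reads divided by a size factor of the library) in wild type and 8.03 to 13.9 with the trap. The neighbouring Y-linked gene Ddx3y had 13.1% of its wild-type level, so that the strains differ in at least these genes. The paper also reports a higher level of Eif2s3y, the other gene flanking Uty, in cardiomyocytes with the trap. Markers of cardiomyocytes dominated every library: the summed level of 10 markers was 23230 to 23433 reads per kilobase of exon per 1000000 nuclear-genome reads in wild type and 23921 to 25398 with the trap. The 9 fibroblast markers summed to 31.0 to 45.3 and 36.2 to 53.7, the 9 endothelial markers to 151 to 179 and 166 to 263, the 8 smooth muscle and pericyte markers to 101 to 107 and 84.9 to 137, and the 8 macrophage markers to 8.54 to 13.5 and 12.9 to 16.8. Of these 4 lists, 4, 4, 4 and 2 genes were higher with the trap by the test given below, and no marker was at 0 in all libraries. Atrial markers (7 genes) summed to 44.6 to 51.5 in wild type and to 55.5, 476 and 311 with the trap. Of these 7 genes 4 were higher and 1, Bmp10, was lower, from 119, 69.9 and 91.7 normalized counts to 0, 0 and 2.29. In bulk RNA of this kind, fewer cells of a type and less RNA per cell cannot be told apart.

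Promoters of the 5 genes whose libraries did not overlap between strains are shown because the elements in them differ from gene to gene. Each is the nearest stretch of 150 bases before the RefSeq start that lies outside annotated exons of the gene. The bases after the RefSeq start of Dusp8 are in no spliced GENCODE M21 transcript of the gene, and its stretch lies inside the annotated span of the gene, between the annotated starts of its transcripts. The stretch of Dusp1 also lies inside the annotated span of its gene, which reaches 26562128 on the minus strand. Capitals mark the TATA box TATAAA, the cAMP response element TGACGTCA or its core TGACG, the serum response element (CArG box) and the AP-1 element TGANTCA, on either strand. The full cAMP response element contains its core.
Gadd45g (chr13:51846525-51846674, plus strand): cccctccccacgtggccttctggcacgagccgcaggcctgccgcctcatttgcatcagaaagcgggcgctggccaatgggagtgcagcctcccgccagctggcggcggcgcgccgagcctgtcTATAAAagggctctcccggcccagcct
Gadd45b (chr10:80929923-80930072, plus strand): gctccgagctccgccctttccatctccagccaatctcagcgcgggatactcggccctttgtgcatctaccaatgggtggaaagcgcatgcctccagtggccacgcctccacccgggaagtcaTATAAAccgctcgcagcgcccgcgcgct
Dusp1 (chr17:26508520-26508669, minus strand): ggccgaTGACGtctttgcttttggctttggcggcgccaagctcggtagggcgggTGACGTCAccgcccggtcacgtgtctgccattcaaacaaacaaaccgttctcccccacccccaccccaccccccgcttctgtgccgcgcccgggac
Dusp5 (chr19:53528959-53529108, plus strand): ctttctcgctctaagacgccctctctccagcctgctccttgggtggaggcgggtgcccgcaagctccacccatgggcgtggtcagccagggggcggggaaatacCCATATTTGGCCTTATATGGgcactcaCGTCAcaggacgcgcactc
Dusp8 (chr7:142095285-142095434, minus strand): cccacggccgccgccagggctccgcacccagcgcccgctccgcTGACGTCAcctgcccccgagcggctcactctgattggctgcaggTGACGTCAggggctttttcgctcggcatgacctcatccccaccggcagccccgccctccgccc

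In the RefSeq window from 250 bases before to 50 after the start, Gadd45g and Gadd45b held a TATA box, as did 13.6% of 32851 mouse promoters. Dusp1 held 1 full cAMP response element and Dusp8 held 2, a sequence found in 1.79% of promoters. Dusp5 held 2 adjoining CArG boxes, and 1.63% of promoters have at least 1 such box. The core TGACG was in 4 of the 9 members with a promoter (Dusp1, Dusp5, Dusp8 and Dusp16) and in 20.8% of promoters, and the Sp1 box GGGCGG in 7 of 9 and in 35.7%. The AP-1 element was in 0 of 9 and in 7.81% of promoters. The windows of Dusp6, Dusp10 and Gadd45a held none of the elements other than, in Dusp10 and Gadd45a, the Sp1 box. These matches describe letters and do not show that a factor binds.

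Of the 3 GADD45 genes, Gadd45g and Gadd45b were higher in every gene-trap library than in any wild-type one, and Gadd45a was not. Of the 7 phosphatase genes, those of the inducible nuclear enzymes DUSP1 and DUSP5 were higher with the trap and the other 5 did not pass the limma test given next. By limma over all 13875 genes, with an adjusted p under 0.05 as the threshold, 4.55% of genes passed as higher with the trap and 6.12% as lower. Of the 10 members, 4 were higher (Gadd45g, Gadd45b, Dusp1 and Dusp5), 0 were lower (0 also at an unadjusted p under 0.05, by edgeR and by DESeq2) and 6 did not pass. By edgeR and by DESeq2, 5 members were higher, these 4 and Dusp8 (edgeR adjusted p = 0.0363, DESeq2 adjusted p = 0.0482). These tools called 730 and 721 of the 13875 genes higher. The members' median log2 fold change was 0.19, beside 0.00179 over all genes tested. All 3 gene-trap libraries lay above all 3 wild-type libraries in 5 members, these 4 and Dusp8, as they did in 14.2% of genes tested. Since the members were chosen with this contrast known, these counts describe them and test nothing.

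**Figure D1:**
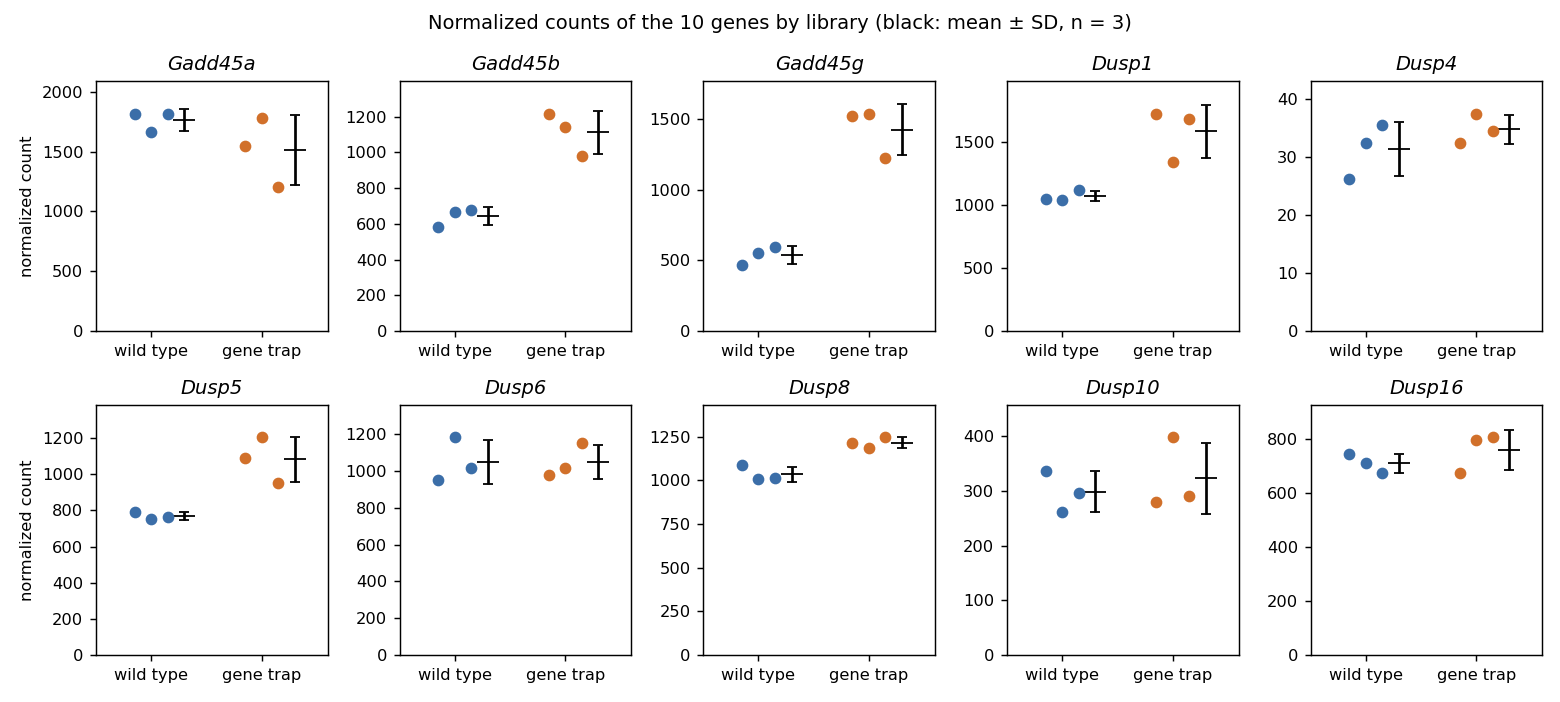
Normalized counts (y axis, from 0) of the 10 genes in 3 wild-type libraries (blue) and 3 gene-trap libraries (orange), with the mean and SD in black. Points of the strains do not overlap for Gadd45b, Gadd45g, Dusp1, Dusp5 and Dusp8.

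Gadd45g (ENSMUSG00000021453, chromosome 13, 51846678 to 51848468, plus strand, GRCm38), the member most tied to differentiation and cytokine signals, had 466, 553 and 596 normalized counts in wild type and 1516, 1535 and 1220 with the trap. The lowest gene-trap library thus held more than the highest wild-type library by a wide margin, and the mean moved from 539 ± 66.1 to 1424 ± 177 (SD, n = 3 each). It rose by a log2 fold change of 1.40 ± 0.11 (SE), or 2.64-fold, the largest difference among the members. The value stood between 1.30 and 1.51 whichever library was left out. In the same gene-trap libraries the fibroblast sums were 52.1, 36.2 and 53.7, the endothelial sums 244, 166 and 263 and the atrial sums 55.5, 476 and 311, so that each library exceeded the wild-type range in at least 1 of the 3. Their part in the level of Gadd45g was not tested.

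Gadd45b (ENSMUSG00000015312, chromosome 10, 80930073 to 80932204, plus strand), known as a target of NF-kappaB and TGF-beta that binds the JNK kinase MKK7, had 584, 668 and 680 normalized counts in wild type and 1217, 1139 and 978 with the trap. Every gene-trap library was above every wild-type one. Gadd45b rose by 0.78 ± 0.10 on the log2 scale, or 1.72-fold, from 644 ± 52.3 to 1111 ± 122, and by 0.71 to 0.87 with 1 library left out.

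Gadd45a (ENSMUSG00000036390, chromosome 6, 67035096 to 67037457, minus strand), the founding member and a target of p53, went the other way in value but not past the test. It had 1817, 1660 and 1816 normalized counts in wild type and 1551, 1781 and 1208 with the trap, so that gene-trap e lay among the wild-type libraries. The log2 fold change was -0.24 ± 0.12, with a coefficient of variation of 19.0% among the gene-trap libraries and 5.13% among the wild-type ones. Without gene-trap e the value was -0.36 and past the threshold, and without gene-trap f it was -0.085 and not past it. Exons of the antisense gene E230016M11Rik overlap Gadd45a over 337 bases, and that gene had 8 to 32 reads per library beside at least 1053 for Gadd45a.

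The make-up of the GADD45 family differed between the strains. Per length, Gadd45a made up 57.4%, 51.3% and 52.4% of GADD45 reads in wild type and 29.9%, 33.3% and 29.3% with the trap. Gadd45g went from 24.6% ± 2.11 to 43.8% ± 0.67 (SD, n = 3 each), and Gadd45b from 21.7% ± 1.23 to 25.3% ± 1.48. Per kilobase of annotated exon, Gadd45a was thus the first of the 3 in all wild-type libraries and Gadd45g in all gene-trap libraries. By the longest transcript as the length, the wild-type mean was 73.6 for Gadd45a (51.0 by exons) and 25.7 for Gadd45g (23.4). That length put Gadd45a just above Gadd45g in gene-trap e, so the order there depends on the length used. The sum of the 3 genes was 90.8 to 99.9 reads per kilobase per 1000000 nuclear-genome reads in wild type and 125 to 153 with the trap.

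**Figure D2:**
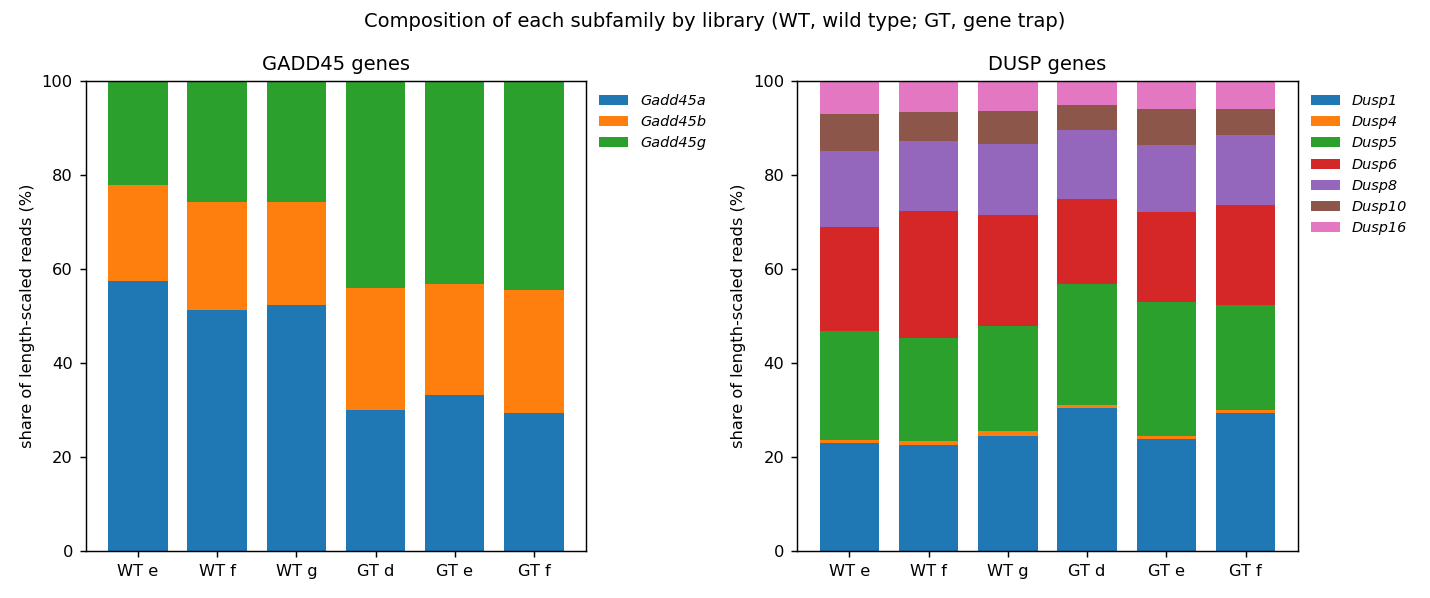
Share of length-scaled reads (y axis, percent) taken by each gene of the GADD45 family (left) and by each of the 7 DUSP genes (right) in the 6 libraries. Gadd45a holds over 51% of the GADD45 bar in each wild-type library and at most 33.3% in each gene-trap library, while the DUSP bars differ less.

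Dusp1 (ENSMUSG00000024190, chromosome 17, 26505590 to 26562128, minus strand) encodes MKP-1, the inducible nuclear phosphatase of p38, JNK and ERK. Its normalized counts were 1049, 1039 and 1114 in wild type and 1721, 1342 and 1680 with the trap. Gene-trap e was the lowest of its strain and still above all wild-type libraries. Dusp1 rose by 0.56 ± 0.09 on the log2 scale, or 1.47-fold, and by 0.49 to 0.67 with 1 library left out.

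Dusp5 (ENSMUSG00000034765, chromosome 19, 53529109 to 53542431, plus strand), an inducible nuclear phosphatase specific for ERK, had 793, 754 and 762 normalized counts in wild type and 1089, 1205 and 954 with the trap. The wild-type libraries lay close together, with a coefficient of variation of 2.65%, below the 3.62% that counting alone gives, and all gene-trap libraries lay above them. Dusp5 rose by 0.48 ± 0.09, or 1.40-fold, and by 0.40 to 0.57 with 1 library left out. With variance moderation that ignored expression level, neither Dusp1 nor Dusp5 passed, though their fold changes were the same. Exons of the annotated antisense gene AC137853.2 overlap 547 bases of Dusp5. That gene was not analysed here, and reads from both strands cannot be told apart if counting ignored strand.

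Dusp4 (ENSMUSG00000031530, chromosome 8, 34807297 to 34819894, plus strand), the inducible nuclear phosphatase MKP-2, was barely read, with 23 to 49 reads per library. Its normalized counts of 26.3, 32.5 and 35.5 in wild type and 32.4, 37.5 and 34.4 with the trap overlapped. The log2 fold change of 0.15 ± 0.23 leaves a difference of the size seen in Dusp1 not detectable at this depth. Dusp2 (PAC-1), a nuclear inducible phosphatase outside the 10 genes, was also low, with 18.3, 20.0 and 33.1 normalized counts in wild type and 86.7, 41.0 and 60.8 with the trap. It rose by 1.35 ± 0.31 (limma adjusted p = 0.0190), a call that was lost without gene-trap d, wild-type e or wild-type f (limma adjusted p = 0.0772, 0.0918 and 0.0784).

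Dusp6 (ENSMUSG00000019960, chromosome 10, 99263231 to 99267489, plus strand), the cytoplasmic ERK phosphatase MKP-3 and a standard readout of ERK activity, did not pass. It had 953, 1183 and 1015 normalized counts in wild type and 979, 1017 and 1153 with the trap, ranges that nearly coincide. The log2 fold change was 0.00122 ± 0.09, and its sign turned in 3 of the 6 fits that left out a library. Dusp7, another cytoplasmic ERK phosphatase and no member, had -0.07 ± 0.08 (limma adjusted p = 0.614).

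None of the 3 phosphatase genes whose products prefer JNK and p38 passed by limma. Dusp8 (ENSMUSG00000037887, chromosome 7, 142079490 to 142095843, minus strand) had 1087, 1007 and 1013 normalized counts in wild type and 1216, 1186 and 1247 with the trap, with no overlap between strains. Its log2 fold change of 0.23 ± 0.07, or 1.18-fold, fell just short of the threshold in the limma fit over all genes. Dusp8 passed it under 10 of 21 other settings, edgeR and DESeq2 among them. It did not pass with a block for the replicate letters (limma adjusted p = 0.201). Nor did it pass with variance moderation that ignored expression level (limma adjusted p = 0.136). Over all 21 the value ran from 0.21 to 0.27. It was the nearest member outside the threshold, as Dusp5 was the nearest inside.

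Dusp10 (ENSMUSG00000039384, chromosome 1, 184013302 to 184075636, plus strand), which encodes MKP-5, had 337, 262 and 296 normalized counts in wild type and 280, 398 and 291 with the trap. Gene-trap e stood above all other libraries and the other gene-trap libraries lay within the wild-type range. The log2 fold change of 0.10 ± 0.14 became -0.054 without gene-trap e. Dusp16 (ENSMUSG00000030203, chromosome 6, 134715468 to 134792625, minus strand), which encodes the JNK phosphatase MKP-7, had 746, 711 and 673 normalized counts in wild type and 673, 796 and 807 with the trap. These ranges overlapped, with a log2 fold change of 0.09 ± 0.09.

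**Figure D3:**
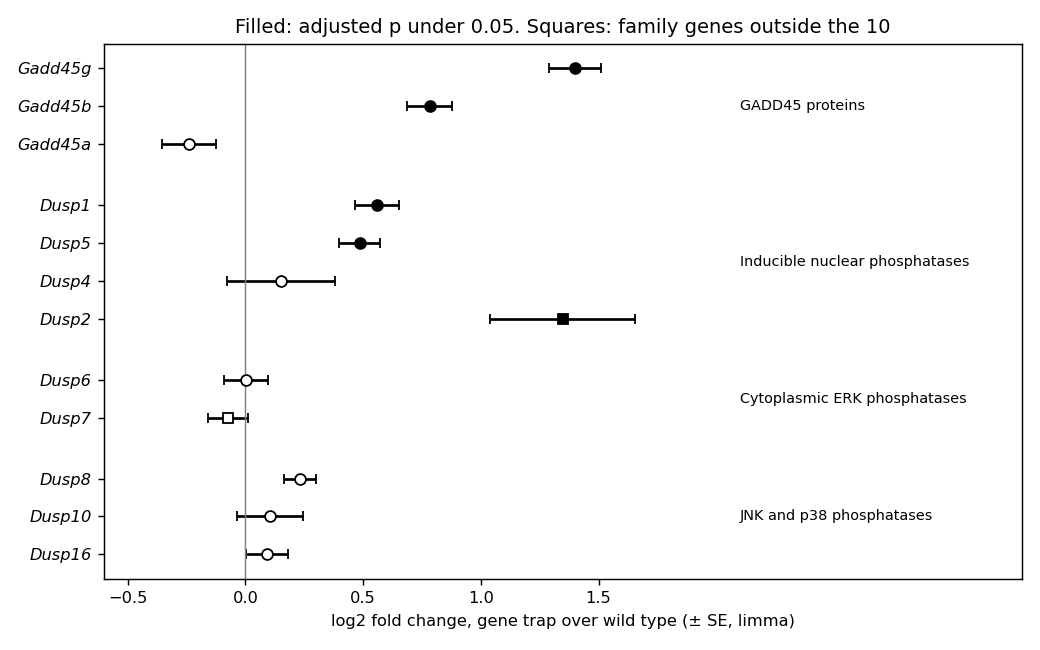
Log2 fold change of gene trap over wild type (x axis, limma, bars ± SE) for the 10 genes (circles) and for Dusp2 and Dusp7 (squares), grouped by role, filled where the adjusted p was under 0.05. Filled symbols are Gadd45g (1.40), Gadd45b (0.78), Dusp1 (0.56), Dusp5 (0.48) and Dusp2 (1.35).

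The levels themselves, which can be compared between genes only per length, spanned a wide range in wild-type cardiomyocytes. Gadd45a led with 51.0 ± 2.05 reads per kilobase of exon per 1000000 nuclear-genome reads (mean ± SD, n = 3), above 94.6% of genes tested. Gadd45g (23.4 ± 2.97), Gadd45b (20.7 ± 1.82), Dusp6 (17.1 ± 2.15), Dusp1 (16.5 ± 0.57) and Dusp5 (15.9 ± 0.30) followed, and neighbours among these 5 genes overlapped. Dusp8 (10.9 ± 0.39) overlapped with neither neighbour. Dusp10 (5.00 ± 0.58) and Dusp16 (4.65 ± 0.24) overlapped, and Dusp4 (0.59 ± 0.09), above only 17.7% of genes tested, was last. In the gene-trap libraries, where Gadd45g overlapped with no other member, the order was Gadd45g (62.9 ± 6.21), Gadd45a (44.4 ± 7.14), Gadd45b (36.3 ± 3.37), Dusp1 (24.9 ± 3.85), Dusp5 (22.7 ± 1.94) and Dusp6 (17.4 ± 2.00), with the same last 4 genes in the same places. Dividing by the longest transcript in place of all exons changed the rank of 4 genes in wild type, with Dusp1 (23.6) above Dusp6 (19.2) and Dusp16 (7.10) above Dusp10 (5.45). By that length the gene-trap libraries of Gadd45g and Gadd45a overlapped.

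**Figure D4:**
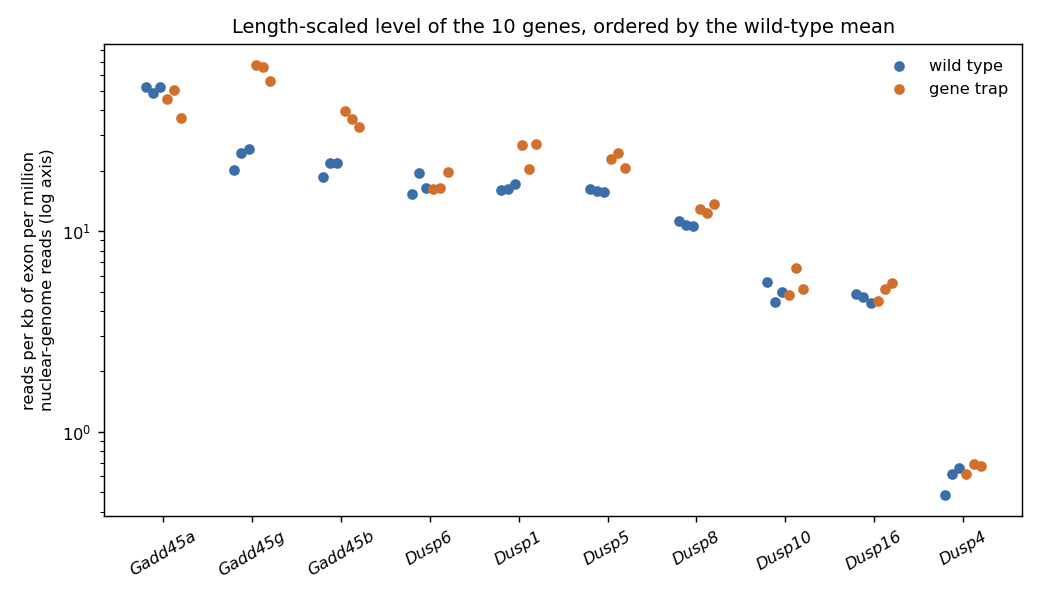
Reads per kilobase of exon per 1000000 nuclear-genome reads (y axis, log scale) of the 10 genes in each wild-type (blue) and gene-trap (orange) library, ordered by the wild-type mean. Gadd45a is first in wild type (51.0) and Gadd45g in gene trap (62.9), and Dusp4 is last in both.

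The 7 phosphatase genes together gave 69.8 to 72.0 reads per kilobase per 1000000 nuclear-genome reads in wild type and 86.0 to 92.7 with the trap. Dusp1 went from 23.3% ± 1.03 to 27.8% ± 3.56 of that sum, Dusp5 from 22.5% ± 0.66 to 25.5% ± 3.12 and Dusp6 from 24.3% ± 2.61 to 19.5% ± 1.58 (SD, n = 3 each). The shares of Dusp1 and Dusp5 overlapped between strains, with Dusp1 at 23.7% in gene-trap e against up to 24.5% in wild type. The share of Dusp6 did not overlap, at 22.0% to 27.1% in wild type and 18.3% to 21.3% with the trap, while its own level overlapped between strains and the sum was higher.

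Calls among genes of the kinase cascades around the members stand beside 4.55% of all genes tested that passed as higher and 6.12% as lower. Of 21 genes of the ERK cascade, 0 rose and 4 fell by limma (median log2 fold change -0.0025), and 0 rose by edgeR or DESeq2. At an unadjusted limma p under 0.05, 5 were higher and 5 lower, beside 1822 and 2087 of all 13875 genes tested. Scaling to nuclear-genome reads or quantile normalization gave 1 rise and 2 falls, and leaving out gene-trap d, wild-type e or wild-type f gave 1 fall. Sos1, the Ras exchange factor, fell by 0.51 on the log2 scale (limma adjusted p = 0.00293), from 2223, 2106 and 1801 normalized counts to 1409, 1436 and 1441. Rps6ka3, an ERK-activated kinase gene, fell by 0.30 (limma adjusted p = 0.0279). Sos1 passed whichever library was left out, whereas Rps6ka3 did not without gene-trap d, wild-type e or wild-type f (limma adjusted p = 0.0837, 0.119 and 0.135).

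Of 23 tested genes of the JNK and p38 cascades, 1 rose and 1 fell (median 0.0155). At an unadjusted limma p under 0.05, 4 were higher and 8 lower. Map3k1, a kinase upstream of JNK, fell by 0.56 (limma adjusted p = 0.000469), from 3599, 3741 and 3344 normalized counts to 2399, 2414 and 2443, and passed with any 1 library left out. Map2k3, a kinase of p38, rose by 0.35 ± 0.08 (limma adjusted p = 0.0204), but not without gene-trap d, wild-type e or wild-type f (limma adjusted p = 0.0666, 0.102 and 0.0767). Mapk9 (JNK2) had -0.23 ± 0.07 (limma adjusted p = 0.0510) and Map3k2 had -0.24 ± 0.08 (0.0617).

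Of 12 tested partners of the GADD45 proteins, 0 rose and 0 fell by limma, edgeR or DESeq2 (median 0.14). At an unadjusted limma p under 0.05, 2 were higher and 2 lower. In this list, limma with no filter gave 2 rises, and a block for the replicate letters gave 1. All gene-trap libraries lay above all wild-type ones in 5 partners and below in 1, beside 14.2% and 17.7% of genes tested. Map3k4 itself had 0.14 ± 0.06 (limma adjusted p = 0.180), Map2k7 had -0.23 ± 0.09 (0.110), Mapk14, which encodes p38 alpha, -0.18 ± 0.07 (0.101), Tet1, a DNA demethylase gene, 0.38 ± 0.12 (0.0617) and Ing1 0.37 ± 0.12 (0.0749).

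Among feedback inhibitors of ERK, Spry4, a Sprouty gene that is itself induced by ERK, rose by 0.86 ± 0.12 (limma adjusted p = 0.00123). Its normalized counts went from 166, 201 and 187 to 324, 309 and 374. Spry4 was 1 rise beside 1 fall (Ier3, by 0.38, limma adjusted p = 0.0225) among 11 tested feedback inhibitors, whose median was -0.05. Ier3 missed the threshold in 4 of the 6 fits that left out a library, with limma adjusted p up to 0.105 (without wild-type f). Nf1 and Spred1 had -0.19 and -0.18 (limma adjusted p = 0.118 and 0.140). A separate list held atypical members of the dual-specificity phosphatase family, which lack the kinase-binding domain of the MAP kinase phosphatases. It was drawn up by family and not by action on MAP kinases. Of 10 tested, Dusp27 rose by limma (0.61 ± 0.12, adjusted p = 0.00985) and 2 genes rose by edgeR or DESeq2. Dusp27 did not pass without wild-type e or f (limma adjusted p = 0.0581 and 0.0521). Of 7 other phosphatases, Ppm1d, which encodes the p53-induced phosphatase WIP1, alone fell (by 0.53, limma adjusted p = 0.0221), but not without gene-trap d, wild-type e or wild-type f (limma adjusted p = 0.0666, 0.111 and 0.0880).

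Transcription factors known to act on GADD45 or DUSP genes were called in both directions: of 24 tested, 1 rose and 7 fell (median -0.08), beside 4.55% and 6.12% of all genes tested. The count of falls was 2 without wild-type e or wild-type f, 3 without gene-trap d and 4 with scaling to nuclear-genome reads, and without gene-trap e 3 rose. Falls numbered 9 by DESeq2, 8 with robust moderation, 8 with no filter and 1 without a variance trend. Atf3 rose by 0.74 ± 0.13 (limma adjusted p = 0.00484). Ddit3, the stress factor CHOP, fell by 1.12 (limma adjusted p = 0.000329), Srf, which binds the CArG box, by 0.35 (0.0105) and Ets2 by 0.31 (0.0106). Atf3 and Ddit3 passed with any 1 library left out, whereas Srf did not without wild-type e or gene-trap d (limma adjusted p = 0.0623 and 0.0540) and Ets2 not without wild-type e or f (0.0571 and 0.0729). Trp53 itself had -0.13 ± 0.13 (limma adjusted p = 0.545).

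Targets of p53, a list that fits Gadd45a by its known control, were split, with 3 rises and 2 falls among 17 (median -0.03). Btg2 (0.84 ± 0.09, limma adjusted p = 0.000274), Plk2 (0.62 ± 0.09, 0.00208) and Plk3 (0.82 ± 0.18, 0.0162) rose, and all 3 are also known as early-response genes. Trp53inp1 fell by 0.52 (limma adjusted p = 0.00275) and Zmat3 by 0.39 (0.0121), while Cdkn1a, the p21 gene, had 0.14 ± 0.07 (0.199). Plk3 missed the threshold without gene-trap d, wild-type e or wild-type f (limma adjusted p = 0.0623, 0.0835 and 0.0641) and Zmat3 without wild-type e or f (0.0649 and 0.0698).

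**Figure D5:**
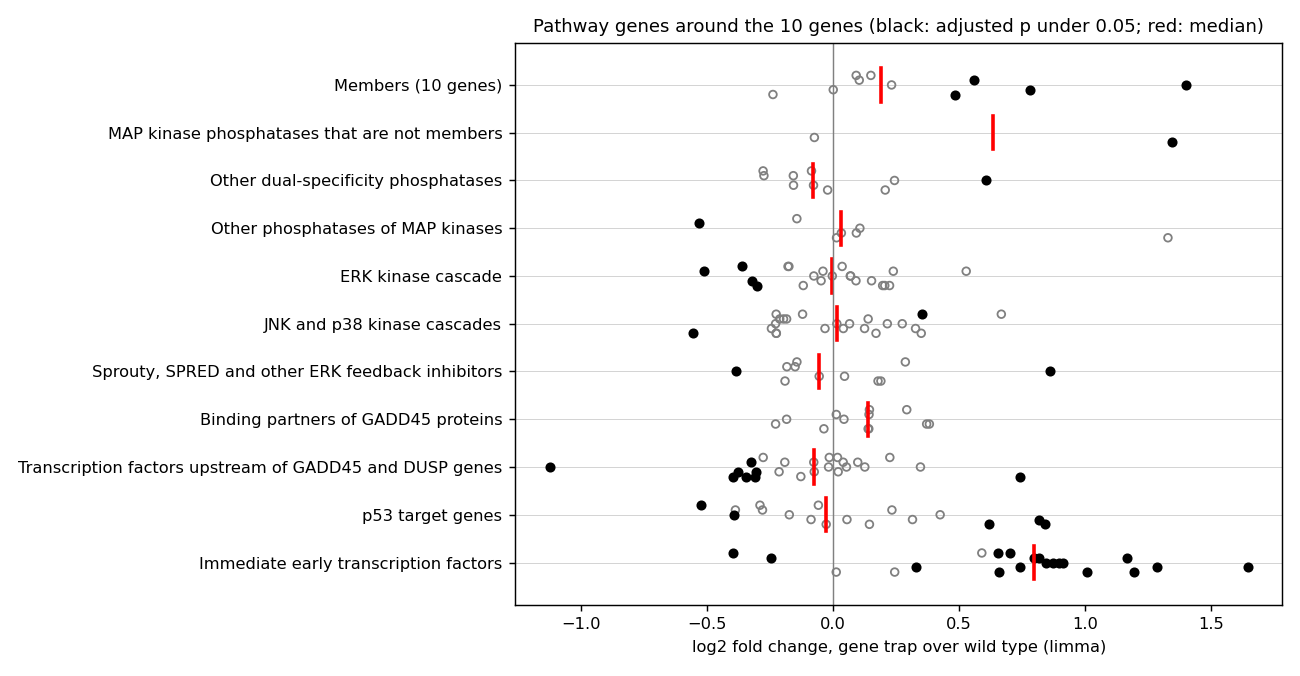
Log2 fold change of gene trap over wild type (x axis, limma) for the 10 genes and the tested genes of 10 surrounding lists, black where the adjusted p was under 0.05, with list medians in red. Medians lie at 0.19 for the members and 0.80 for the immediate early transcription factors, and between -0.08 and 0.14 for the 8 other lists of at least 7 tested genes.

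Many immediate early transcription factors, which answer the same kinds of stimuli as Dusp1 and Gadd45b, also rose. Of 21 tested, 16 rose and 2 fell, with a median of 0.80, beside 4.55% and 6.12% of all genes tested. Klf10 (1.65 ± 0.08), Fos (1.20 ± 0.09), Fosb (1.28 ± 0.10) and Egr1 (0.91 ± 0.08) had the smallest p (limma adjusted p = 4.02e-07, 2.37e-05, 2.87e-05 and 4.70e-05). Of the rises, Nr4a2, Jund and Klf4 each missed the threshold in 4 of the 6 fits that left out a library. The falls, Fosl2 and Nr4a3, missed it in 4 and 2. Moderation without a variance trend gave 10 rises and 0 falls. The part of these factors in the members' values was not tested, nor was that of the mitochondrial share or of the marker sums.

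The genes whose pattern over the 6 libraries was nearest to Gadd45g, by Euclidean distance between log2 values centred on the wild-type mean, were Dnajb1 (0.16), Epha2 (0.45), Fos (0.47), Tubb2a (0.47) and Cish (0.52). Dnajb1, an HSP40 co-chaperone gene, had 464, 577 and 608 normalized counts in wild type and 1478, 1666 and 1160 with the trap, so it followed Gadd45g library by library, with f the lowest of the gene-trap libraries in both. Cish, a SOCS-family gene induced by cytokines, had 991, 961 and 1122 and then 2123, 2661 and 2181. This likeness is a description over 6 libraries, in which the difference between strains makes up most of the pattern.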

How the data were processed

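RNA from cultured adult cardiomyocytes of both strains was sequenced as stranded, ribosomal RNA-depleted libraries with 50-base single reads. The sources name CASAVA 1.4, alignment by STAR 2.5.1b on GRCm38, gene counting by featureCounts 1.6.0 and DESeq2 1.22.2. How strand and multi-mapping reads were set is not stated. The deposited signal values are gene counts that the authors divided by a size factor of each library. All values were whole multiples of the value of 1 read (tolerance 0.001), so whole reads were recovered for depth and count tests. The log2 fold changes with their standard errors, the Wald score and the p-values that the authors deposited in the same table were not used.

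Levels were tested with limma 3.58.1 in R 4.3.3 (variance trend, log2 of the normalized count plus a pseudocount of 1) over the 13875 genes whose mean reached 10 normalized counts. P-values were two-sided and adjusted by Benjamini and Hochberg over all genes tested, with a threshold of 0.05. Fold changes are thus on the scale of log2(value + 1). Levels between genes were compared as recovered reads per kilobase of annotated exon (GENCODE M21, GRCm38, 54165 of 54232 identifiers) per 1000000 reads of nuclear-genome genes. Alternatives were edgeR 4.0.16, DESeq2 1.42.0, other pseudocounts, filters, scalings, moderation and thresholds, a replicate block, protein-coding genes only, and leaving out each library. The fit was tested on simulated data. Rows without a symbol (123) held 0.00343% of the reads.

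The members and the lists were chosen with earlier results of these data known. Named genes were the 10 members, up to 4 genes with the smallest p in each list, every gene of a count of 5 or fewer, and the 5 protein-coding genes with the profile nearest to the member of smallest p. Some genes of the lists that this rule would name are not reported here. Groups followed the sample titles. The 3 libraries of a strain came from separate isolations, and the counts of 2 libraries of a strain always differed beyond sampling noise (chi-square over its degrees of freedom, 9.88 to 50.3). Promoter sequences are RefSeq's on GRCm38.p6, held for 9 of the 10 members.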

Additional observations from a re-analysis of the deposited data

How the results depend on the processing

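Across 21 alternatives to single choices, Gadd45g (1.30 to 1.51 on the log2 scale) and Gadd45b (0.71 to 0.87) kept their direction and stayed past the threshold in all, and Dusp1 (0.49 to 0.67) and Dusp5 (0.40 to 0.57) in all but moderation without a variance trend. In that setting 76 genes rose, 70 fell and 2 members rose. No filter gave 1004 rises, and a threshold of 0.01 gave 137 rises and 229 falls. With 1 library left out, rises ranged from 167 to 999, falls from 233 to 1226 and members that fell from 0 to 1, the 1 being Gadd45a without gene-trap e (its values ran from -0.36 to -0.085). Leaving out gene-trap e gave 999 rises, gene-trap d 279, wild-type f 196 and wild-type e 167. Dusp6 ranged from -0.068 to 0.090 in these fits and was below 0 when gene-trap f, wild-type e or wild-type g was left out (-0.068, -0.066 and -0.020), and Dusp10 ranged from -0.054 (without gene-trap e) to 0.20. Scaling to reads of the nuclear genome gave 707 rises and 694 falls, and a median of 0.22 for the members. Of 41 calls among pathway genes, 21 were lost with some library left out and 27 without the variance trend, and 0 turned direction. Of 420 counts of the pathway lists under these settings, 341 stayed within 1.5 times the reported count. Here 0 beside 0 was taken as within, and most of the reported counts were 0 or 1, so this share says little about stability. The letters e and f occur in both strains, and deviations of same-lettered libraries correlated across genes at 0.109 and 0.146. With a replicate block for these letters, 635 genes rose, 747 fell and 4 members rose. Depth limits Dusp4 (23 to 49 reads per library) and Dusp2.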
